A study of Mus musculus with 20 samples.

Results

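The 35 genes described here encode enzymes and regulators that make cholesterol, or that make the fatty acids and sphingolipids of which myelin is built. They were taken by their symbols from the 22734 genes of an RNA sequencing count table of the developing mouse cochlea and superior olivary complex (SOC), brainstem nuclei that take part in locating sounds. All 35 were found, and all were tested in both organs. By role, 8 act in the mevalonate pathway, 11 in the squalene and sterol steps, 3 regulate sterol synthesis, 7 make, desaturate or elongate fatty acids, and 6 make sphingolipids and galactolipids. The organs were sampled at embryonic day 16 (E16), at birth (P0) and at postnatal day 16 (P16). The cochlea gave 3 libraries at each age, and the SOC gave 4 at E16, 4 at P0 and 3 at P16. All mice were wild type (WT) and untreated. Each cochlear library held the dissected inner ear sensory epithelium pooled from several C57BL/6JOlaHsd mice of both sexes, and each SOC library held tissue pooled from several C57Bl6/J mice of both sexes. The SOC was cut from frozen whole heads at E16 but from dissected brains at P0 and P16. Substrain, laboratory, library kit and sequencer went with the organ. Levels were therefore compared between ages of 1 organ, since these factors and the organ cannot be told apart.

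Cholesterol is built from acetyl-CoA through mevalonate, isoprenoid pyrophosphates, squalene and lanosterol. The transcription factor SREBP2, encoded by Srebf2, switches the pathway on when membranes are low in sterol, with the protein SCAP as its escort and INSIG1 as the brake that holds both in the endoplasmic reticulum. Myelin, made by oligodendrocytes in the brainstem and by Schwann cells on the peripheral fibres of the auditory nerve, is rich in cholesterol and in galactosylceramide and sulfatide with very long chain and hydroxylated fatty acids. Brain cholesterol is made locally, because lipoproteins of the blood do not cross the blood-brain barrier.

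Total counts were 20843679 to 33109083 per library. Levels are given as CPM, each count relative to its library's total and scaled by TMM factors within the organ. Calls required an adjusted p (Benjamini-Hochberg, edgeR's quasi-likelihood test) under 0.01, a change of over 2.5-fold and no overlap between the libraries of the ages compared, and "rose" and "fell" are used of called genes alone. In the SOC, replicate 4 of E16 and of P0 and replicates 1 and 2 of P16 appear to have been filtered together in a table of their own. Replicates 1 to 3 of E16 and P0, and replicate 3 of P16 by itself, appear to form separate tables. No label names these sets, which were inferred from the absence of low counts and are called joined tables below. These sets differed by GC content, as described with the values they touch. In bulk tissue, a change in the number of cells of a type and a change in the RNA of each cell cannot be told apart.

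Between E16 and P16, 15 of the 35 genes rose in the SOC and 10 rose in the cochlea. No gene of the set was called lower in either organ at any step, by edgeR or by DESeq2. At an unadjusted p under 0.05 in edgeR, the cochlea had 3 lower at P0 than at E16, 5 lower at P16 than at E16 and 8 lower at P16 than at P0. The SOC had 1 lower at P0 than at E16 and 0 at both other steps. The shares of all genes at this unadjusted threshold are not given. At an adjusted p under 0.05, 19.3%, 29.8% and 31.1% of all genes were lower in the cochlea at these 3 steps. In the SOC the shares were 18.3%, 33.8% and 25.1%. From E16 to P16, 11.7% of all genes tested were called higher and 13.7% lower in the SOC. In the cochlea 14.8% were called higher and 9.51% lower. All 10 genes called in the cochlea were also called in the SOC: Msmo1, Hsd17b7, Insig1, Scd1, Elovl1, Elovl7, Fa2h, Ugt8a, Gal3st1 and Degs1. Idi1, Lss, Sc5d, Scd2 and Cers2 were called in the SOC alone. The median log2 fold change of the 35 genes was 1.23 in the SOC and 0.50 in the cochlea, beside -0.14 and 0.01 over all genes tested. At an adjusted p under 0.05 with no minimum fold, 25 genes of the set were higher and none was lower at P16 in the SOC, against 27.5% higher and 33.8% lower among all genes. By the same rule 19 were higher and 5 lower in the cochlea, against 31.5% and 29.8%. The 5 lower genes were Acat2, Mvk, Mvd, Dhcr7 and Elovl6.

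**Figure D1:**
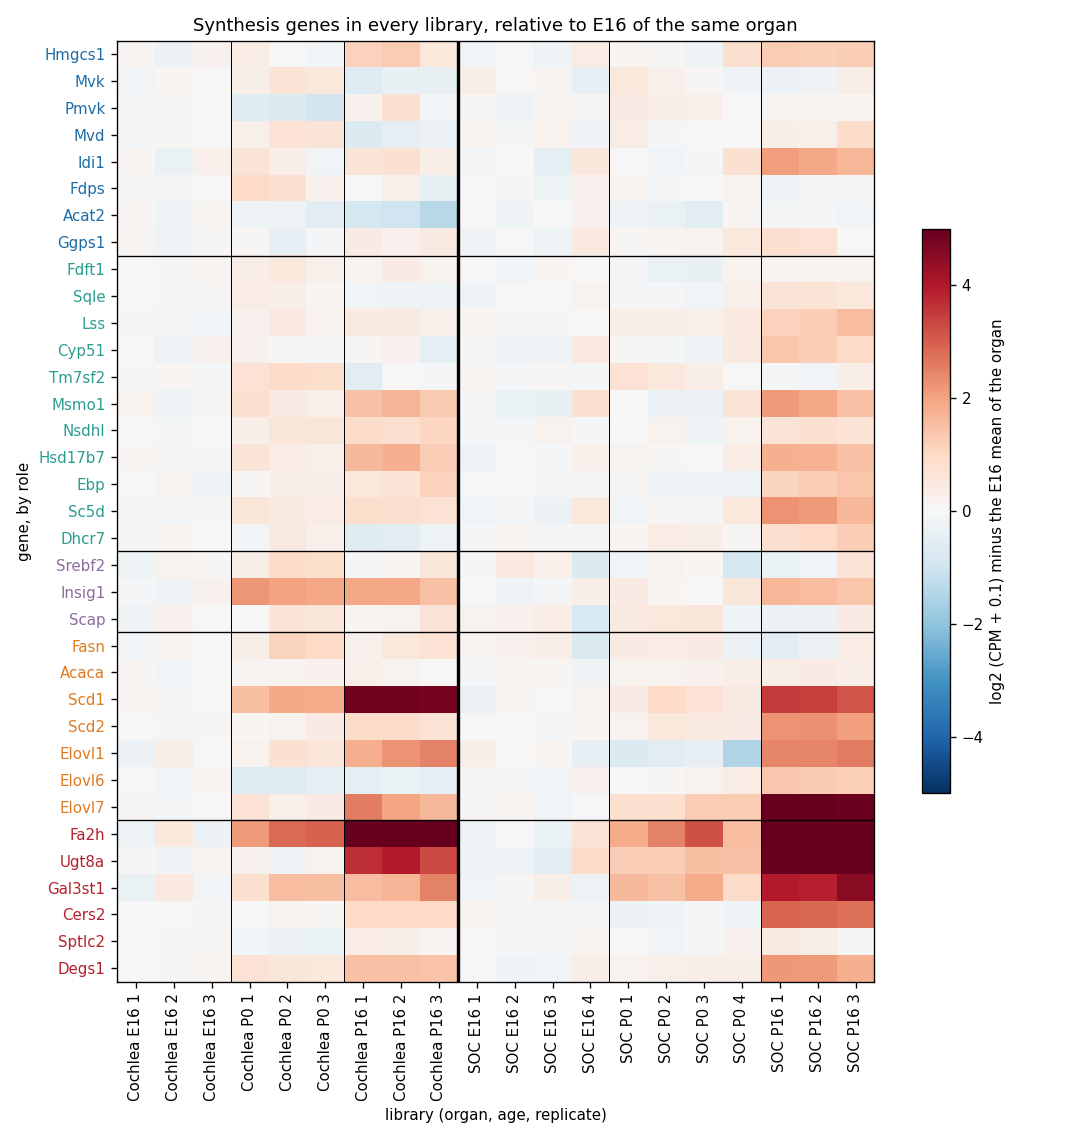
Each row is a gene, grouped by role, and each column a library; colour gives log2 (CPM + 0.1) minus the E16 mean of the same organ, from blue (lower) to red (higher), with values beyond 5 in size drawn as 5. The reddest rows at P16 are Fa2h, Ugt8a and Elovl7 in the SOC and Fa2h, Scd1 and Ugt8a in the cochlea, and in the cochlea the mevalonate rows are mixed.

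Few of these calls were already made at birth. From E16 to P0, the SOC had 2 genes called higher (3.19% of all genes were, and 6.3% lower), Fa2h and Gal3st1. With a replicate block, Ugt8a was called as well (log2 1.35, edgeR adjusted p 2.8e-04, against 1.24 without it). The cochlea had 3 (4.57% of all genes were called higher and 3.4% lower), Fa2h, Insig1 and Scd1. From P0 to P16, 14 of the 35 rose in the SOC, beside 7.51% of all genes higher and 8.31% lower. In the cochlea 5 of the 35 rose over that step: Scd1, Elovl1, Elovl7, Fa2h and Ugt8a. This share is near that of all genes, of which 14.6% were called higher and 10.4% lower. At an adjusted p under 0.05 with no minimum fold, the cochlea had 17 higher and 2 lower at P0 than at E16 (22.6% and 19.3% of all genes), and 17 and 8 at P16 than at P0 (33.1% and 31.1%). The SOC had 7 and 1 over the first step (16.4% and 18.3% of all genes) and 22 and 0 over the second (23.2% and 25.1%). The comparisons of P16 with E16 and with P0 share the P16 libraries.

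The summed level of the 35 genes ranged from 4243 to 4692 CPM in the SOC at E16, from 4761 to 5591 at P0 and from 12720 to 14479 at P16. In the cochlea the sums were 2544 to 2698, 3123 to 3728 and 4814 to 5208 CPM. Neither organ's sums at P16 overlapped with those of the earlier ages. Abundant genes weigh most in such sums. In the SOC, Scd2 made up a mean of 818 CPM at E16 and 3737 at P16, Ugt8a 14.9 and 2467, and Hmgcs1 782 and 1834. Fasn was at 558 and 503. Per kilobase of exon, Scd2 stood highest in the SOC at P16, with a mean level of 684 CPM per kb, followed by Ugt8a at 544 and Hmgcs1 at 399. Scd2 also stood highest in the cochlea at P16, at 285 CPM per kb, followed by Scd1 at 152.

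Among the 8 genes of the mevalonate pathway, Idi1 was the only one called within an organ, in the SOC. There 11.7% of all genes were called higher for P16 vs E16. Idi1 (ENSMUSG00000058258, chromosome 13, 8885501 to 8892451 in mm10), which interconverts the isoprenoid units, was at 21.1, 21.8, 15.7 and 32.1 CPM in the SOC at E16, at 22.5, 19.8, 21.2 and 36.8 at P0, and at 94.4, 82.1 and 68.9 at P16. The P16 libraries lay above all others, and replicate 4 was the highest at both earlier ages. The log2 fold change for P16 vs E16 was 1.85 (SE 0.26, edgeR adjusted p 4.44e-05), and 1.43 (SE 0.17) with the joined table as a term in the fit. With that term, here and below, P16 replicate 3 is alone in its set and does not count toward the change. P16 replicates 1 and 2 are then linked to the earlier ages only through replicate 4 of E16 and of P0. In the cochlea P0 overlapped with both other ages, and the log2 fold change for P16 vs E16 was 0.57 (SE 0.22). Of the windows of 50 bases along the exons of Idi1, 21.3% also occur in other annotated genes, so its counts are uncertain.

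Hmgcs1 (ENSMUSG00000093930, chromosome 13, 119690379 to 119708260), the HMG-CoA synthase that commits acetyl units to the pathway, was the most abundant gene of its group. Its SOC libraries were at 705, 754, 673 and 996 CPM at E16, at 822, 802, 674 and 1335 at P0, and at 1883, 1781 and 1837 at P16. No P16 library overlapped with an earlier one, and replicate 4 was again the highest at E16 and P0. The rise of 2.35-fold (log2 1.23, SE 0.21, edgeR adjusted p 2.9e-04) stayed under the 2.5-fold minimum. The log2 value was 0.76 with the joined table as a term, whereas Hmgcs1 was called at 1.41 with GC offsets, at 1.41 with a replicate block and at 1.37 without SOC E16 replicate 4. Replicate numbers did not pair the SOC libraries of E16 and P16, so the block is weak ground there. In the cochlea Hmgcs1 was at 126.7, 97.1 and 137 CPM at E16 and at 263, 288 and 170 (169.5) at P16, a log2 fold change of 1.00 (SE 0.21, edgeR adjusted p 0.0015).

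No other gene of the group was called within an organ. Acat2, the cytosolic thiolase that makes acetoacetyl-CoA, had the largest change in the cochlea, from 48.8, 39.2 and 50.03 CPM at E16 through 39.3, 38.4 and 31 at P0 to 25.1, 22.6 and 17.4 at P16. Its P16 libraries lay under all E16 and P0 libraries, but the log2 fold change of -1.08 (SE 0.16, edgeR adjusted p 1.53e-04) did not reach the 2.5-fold minimum. Its counts are uncertain too, with 45.9% of its windows shared with Acat3. Pmvk, the phosphomevalonate kinase, had the largest change from P0 to P16 in the cochlea, where it was at 26.3, 23.7 and 25.5 CPM at E16, at 16.6, 15.7 and 13.2 at P0, and at 29.4, 44.9 and 23.2 at P16. The P0 libraries lay under all others, with log2 values of -0.73 (SE 0.21) for P0 vs E16 and 1.10 (SE 0.21) for P16 vs P0, neither of which was called. Mvk, the mevalonate kinase, and Mvd, the decarboxylase of the same stretch, were highest at P0 in the cochlea and not called, with log2 values of 0.51 and 0.56 for P0 vs E16 and of -0.97 and -1.03 for P16 vs P0. Ggps1, which makes geranylgeranyl pyrophosphate, differed by 0.35 (log2) in the cochlea and 0.54 in the SOC for P16 vs E16. Fdps, the farnesyl pyrophosphate synthase, differed by less than 0.11 in size in both, and its level of 1.03 CPM per kb in the cochlea and 1.49 in the SOC was the lowest of the set at P16. Of the exon length of Fdps, 26.7% lies under another gene on the same strand. Other annotated genes share 11.7% of its windows, so its level is uncertain.

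Promoters were read for 29 of the 35 genes, from RefSeq on GRCm38.p6, as 250 bases before and 50 after each start site, and were searched on both strands. The core of the sterol regulatory element, TCACNCCAC, was found in 1 of these genes, Hmgcs1, and in 1.44% of the 27025 genes with a promoter. The CCAAT box, the letters bound by the factor NF-Y, was found in 22 of the 29 genes (75.9%), beside 41.1% of all genes. It was in 17 of the 19 sterol genes and in 5 of the 10 fatty acid and sphingolipid genes. The E box CANNTG was in 82.8% of the 29 and in 75% of all genes. The motifs can share bases at their ends, and a match describes letters only. The promoter of Hmgcs1 is shown because it alone holds the sterol element core, 137 to 129 bases before the start site. It covers chr13:119690101-119690350 on the plus strand, up to the base before the start site, with the sterol element (TCACCCCAC) and 3 CCAAT boxes on the other strand (ATTGG) in capitals.
Hmgcs1: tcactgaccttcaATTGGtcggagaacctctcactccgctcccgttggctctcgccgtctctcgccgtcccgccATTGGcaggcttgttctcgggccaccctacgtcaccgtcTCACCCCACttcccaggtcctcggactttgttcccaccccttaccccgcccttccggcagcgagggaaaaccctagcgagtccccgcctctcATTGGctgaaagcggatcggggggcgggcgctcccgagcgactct

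In the squalene and sterol steps, 4 of the 11 genes were called higher at P16 than at E16 in the SOC and 2 in the cochlea. Of all genes, 11.7% and 14.8% were. Sc5d, the sterol desaturase (ENSMUSG00000032018, chromosome 9, 42251595 to 42264256), led in the SOC. Its SOC libraries were at 51.6, 53.5, 47.1 and 81.9 CPM at E16, at 52.04, 58.8, 59.7 and 82.7 at P0, and at 269, 248 and 181 at P16. All P16 libraries lay above all earlier ones, with a log2 fold change of 1.99 for P16 vs E16 (SE 0.22, edgeR adjusted p 7.19e-06) and of 1.71 with the joined table as a term. In the cochlea Sc5d reached 0.82 (SE 0.11), and its 3 ages did not overlap, from 19.6 to 22.1 CPM at E16, 27.8 to 32.4 at P0 and 35.3 to 38.9 at P16.

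Hsd17b7, which reduces the keto group left after demethylation (ENSMUSG00000026675, chromosome 1, 169949535 to 169969241), led in the cochlea. It was at 22.7, 20.2 and 20.4 CPM at E16, at 32.9, 27.4 and 25.04 at P0, and at 65.01, 73.1 and 49.2 at P16, so that each age lay above the one before. Its log2 fold change for P16 vs E16 was 1.57 (SE 0.16, edgeR adjusted p 8.47e-06) in the cochlea and 1.67 (SE 0.14, adjusted p 8.09e-07) in the SOC. Msmo1, the methylsterol monooxygenase that starts the removal of methyl groups, rose by a log2 of 1.50 in the cochlea (SE 0.16) and 1.79 in the SOC (SE 0.30), where the SE was larger. Its SOC libraries were at 106.9, 87.8, 85.6 and 185 CPM at E16 and at 477, 420.2 and 308 at P16, and the value with the joined table as a term was 1.33. Lss, the lanosterol synthase, passed narrowly in the SOC at 2.51-fold, and its call was lost in 6 of the alternatives run.

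The other 7 genes of these steps were not called for P16 vs E16 in either organ. In the SOC, however, 9 of all 11 were higher at an adjusted p under 0.05, beside 27.5% of all genes. Ebp, the sterol isomerase, was at 13.5 to 14.96 CPM at E16 and 31.3 to 37.6 at P16 in the SOC. It was called from P0 to P16 (log2 1.41, SE 0.13), but not with upper-quartile factors (1.30) or without SOC P16 replicate 3 (1.32). For P16 vs E16 Ebp was at 1.26 (SE 0.13) and called with GC offsets (1.62) and without SOC P16 replicate 1 (1.35). Cyp51, the lanosterol demethylase, differed by 1.17 (log2, SE 0.20) in the SOC and -0.04 in the cochlea. Dhcr7, which makes cholesterol in its last step, differed by 1.03 (SE 0.14) in the SOC and -0.47 (SE 0.16) in the cochlea. Sqle, the squalene epoxidase, differed by 0.61 in the SOC and -0.19 in the cochlea, and Nsdhl, a decarboxylase of the demethylation, by 0.70 and 0.96. Fdft1, the squalene synthase, was at 0.15 and 0.26, and Tm7sf2, a sterol reductase, at 0.05 and -0.20. The sign of Fdft1 and Tm7sf2 in the SOC changed with the setting of the fit. Another annotated gene shares 10.9% of the windows of Fdft1, so its counts are uncertain. In the cochlea Tm7sf2 was highest at P0, at 0.86 (SE 0.16) for P0 vs E16 and -1.06 (SE 0.16) for P16 vs P0, with no call.

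Of the 3 regulators, Insig1 rose in both organs, but at different ages. Insig1 (ENSMUSG00000045294, chromosome 5, 28071363 to 28078662) was at 32.6, 30.3 and 39.6 CPM in the cochlea at E16, at 159, 137 and 131 at P0, and at 130.3, 132 and 93.4 at P16. The P0 and P16 libraries overlapped and all lay above E16, with a log2 fold change of 2.06 for P0 vs E16 (SE 0.16, edgeR adjusted p 1.74e-05). In the SOC it was at 105, 93.7, 98.9 and 133 CPM at E16, at 141, 113, 106 and 160.2 at P0, and at 337, 312 and 279 at P16. There E16 and P0 overlapped and P16 stood above both, with 1.52 for P16 vs E16 (SE 0.17, edgeR adjusted p 7.82e-06). Its value for P16 vs P0, 1.25 (SE 0.17), was under the minimum fold. Srebf2 and Scap were not called in any comparison. In the cochlea Srebf2 was at 114, 151 and 137 CPM at E16, at 163, 254 and 247 at P0, and at 125, 144 and 198 at P16, where E16 and P16 overlapped.

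In the SOC, Srebf2, Scap and Fasn divided the libraries by joined table more than by age. Srebf2 was at 50.4, 73.4 and 63.2 CPM in replicates 1 to 3 of E16 and at 32.3 in replicate 4. At P16 it was at 42.1 and 47.9 in replicates 1 and 2 and at 82.1 in replicate 3. Scap was at 88.4, 93.1, 102.5 and 46.5 CPM at E16 and at 64.9, 65.4 and 104 at P16. Fasn showed the same order, as given below, so that the low libraries at each age were those of the 4-library table. These 3 genes have a GC content of 57.9 to 59.1%. With the joined table as a term, the P16 vs E16 log2 values were 0.46 (SE 0.18) for Srebf2, 0.39 (SE 0.12) for Scap and 0.17 (SE 0.13) for Fasn, in place of 0.07, -0.08 and -0.15.

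Across the 35 genes, the difference of replicate 4 from the mean of replicates 1 to 3 correlated with GC content at r = -0.80 at E16 and -0.77 at P0. At P16 the difference of replicate 3 from the mean of replicates 1 and 2 correlated at r = 0.87. These values run across genes that share libraries, and they describe those libraries only. Msmo1, with 44.7% GC, was 0.99 (log2) higher in replicate 4 at E16, whereas Scap, with 59.1%, was 1.01 lower (-1.01). Within the 4-library table alone, where P16 replicates 1 and 2 met E16 replicate 4, the differences were 1.43 for Idi1, 1.27 for Msmo1, 1.64 for Sc5d, 6.62 for Ugt8a and 0.88 for Hmgcs1. These within-table values have no test.

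**Figure D2:**
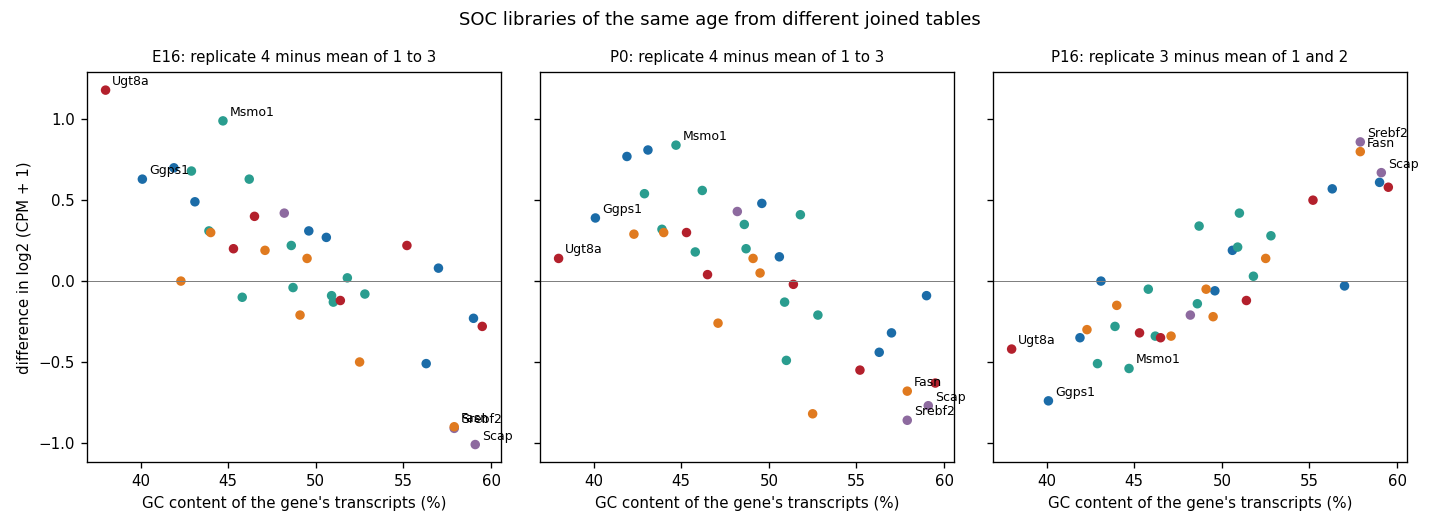
Each point is a gene of the set, coloured by role, with the GC content of its transcripts (%) on the x axis. The y axis gives the difference in log2 (CPM + 1) between SOC libraries of the same age from different joined tables, as inferred from the counts. Points fall with GC at E16 and P0 (r = -0.80 and -0.77) and rise with it at P16 (r = 0.87), with Srebf2, Scap and Fasn at the GC-rich end.

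Among the genes that make, desaturate and elongate fatty acids, 4 of 7 were called higher at P16 in the SOC and 3 in the cochlea. The shares of all genes called higher for P16 vs E16 were 11.7% and 14.8%. Scd1 and Scd2 encode stearoyl-CoA desaturases, which put the double bond into newly made fatty acids. In mm10 they lie on chromosome 19 (44394455 to 44407879 and 44293674 to 44306864) and share 4.66% and 4.01% of their exon windows with other genes, each other included. Scd1 had the largest rise of the group in the cochlea, at 28.03, 24.3 and 26.6 CPM at E16, 74.1, 98.3 and 94.7 at P0, and 755, 752 and 724 at P16. The 3 ages did not overlap, and the P16 libraries lay close together. Its log2 fold change was 4.82 for P16 vs E16 (SE 0.14, edgeR adjusted p 2.02e-09). In the SOC Scd1 was at 32.9 to 44.3 CPM at E16 and 350 (349.6) to 450.2 at P16, a log2 fold change of 3.35 (SE 0.18).

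Scd2 was already the most abundant gene of the set per kilobase at E16 in the cochlea (160 CPM per kb). In the SOC it was at 798, 830.2, 767 and 878 CPM at E16, at 925, 1175, 1104 and 1098 at P0, and at 3856, 3993 and 3362 at P16 (log2 fold change 2.19 for P16 vs E16, SE 0.12, edgeR adjusted p 2.38e-08). In the cochlea it was at 884, 824 and 917 CPM at E16, at 947, 1000 (999.6) and 1148 at P0, and at 1635, 1633 and 1400.0 at P16 (log2 fold change 0.83, SE 0.12), which was under the minimum fold. The sign of the organ difference thus differed between the paralogs. In the interaction test, which subtracts the log2 change of the SOC from that of the cochlea, Scd1 was at 1.57 (SE 0.22) and called, and Scd2 at -1.26 (SE 0.17) and not called.

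The 3 elongases did not move alike. Elovl7 (ENSMUSG00000021696, chromosome 13, 108214404 to 108285683), which extends long chain fatty acids, led in the SOC, at 5.2, 5.21, 4.42 and 4.91 CPM at E16, 8.55, 8.91, 12.02 and 12.1 at P0, and 199, 172 and 150.2 at P16. The ages did not overlap, and the log2 fold change was 5.14 (SE 0.18, edgeR adjusted p 1.56e-09) against 2.10 (SE 0.22) in the cochlea. Elovl1, which makes the very long chains found in sphingolipids, rose by 2.49 (SE 0.23) in the SOC and 2.20 (SE 0.22) in the cochlea. In the SOC it was lower at P0, at 6.61, 7.33, 7.93 and 3.69 CPM, than at E16, at 12.9, 10.9, 11.4 and 7.97 (log2 -0.76, SE 0.22, edgeR adjusted p 0.016), before it reached 58.7, 58.3 and 64.6 at P16. Elovl6, which extends palmitate, was not called in either organ, at 1.27 (SE 0.14) in the SOC and -0.41 (SE 0.10) in the cochlea.

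Fasn, the fatty acid synthase, and Acaca, the acetyl-CoA carboxylase that supplies it, were not called at any step. Fasn was at 594, 629, 671 and 337 CPM in the SOC at E16, at 709, 701, 719 and 444 at P0, and at 365, 443 and 701 at P16. In the cochlea it was at 419, 511 and 469 CPM at E16, at 569, 1013 and 937 at P0, and at 540.4, 671 and 769.9 at P16. The cochlear P0 and P16 libraries overlapped and both lay above E16, with log2 values of 0.85 (SE 0.21) for P0 vs E16 and 0.50 for P16 vs E16. Acaca differed by 0.34 in the SOC and 0.16 in the cochlea, and 52.6% of its exon windows are shared with an annotated copy.

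The sphingolipid and galactolipid genes held the largest rises of the set. In the SOC 5 of 6 were called for P16 vs E16 and in the cochlea 4 of 6, with a median log2 fold change of 3.50 and 1.70. The shares of all genes called higher were 11.7% and 14.8%. Fa2h, which hydroxylates the fatty acid of myelin galactolipids (ENSMUSG00000033579, chromosome 8, 111345135 to 111393824), was near the limit of detection at E16 in both organs. In the cochlea it was at 0.2, 0.41 and 0.18 CPM at E16, at 1.45, 2.37 and 2.56 at P0, and at 45.5, 45.05 and 78.4 at P16. In the SOC it was at 0.13, 0.17, 0.12 and 0.33 CPM at E16, at 0.91, 1.46, 2.4 and 0.72 at P0, and at 67.7, 70.95 and 98.5 at P16. No ages overlapped in either organ.

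Because the E16 values of Fa2h rest on 20 counts in the cochlea and 18 in the SOC, with 3 counts in 2 of the 4 SOC libraries, its ratios were also taken from pooled counts. Fa2h was 214-fold higher at P16 in the cochlea, with a 95% exact counting interval of 138 to 351, and 428-fold higher in the SOC, with 270 to 722 (intervals cover counting error only). The fitted log2 values were 7.74 (SE 0.38, edgeR adjusted p 3.65e-08) and 8.67 (SE 0.42, adjusted p 9.83e-09). Fa2h was also called from E16 to P0 in both organs, at 3.02 (SE 0.42) and 2.82 (SE 0.46).

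Ugt8a, the transferase that makes galactosylceramide (ENSMUSG00000032854, chromosome 3, 125865271 to 125938619), rose in the SOC from 12.2, 11.7, 9.59 and 26.3 CPM at E16 through 32.3, 32.1, 38.9 and 38.01 at P0 to 2902, 2492 and 2006 at P16. Replicate 4 stood above the others at E16, and no ages overlapped. The log2 fold change was 7.37 for P16 vs E16 (SE 0.35, edgeR adjusted p 8.41e-09) and 6.12 for P16 vs P0 (SE 0.33). In the cochlea it was at 12.1, 10.3 and 12.9 CPM at E16, 13.7, 10.3 and 13.1 at P0, and 152, 186 and 115 at P16. There E16 and P0 overlapped, and the log2 fold change for P16 vs E16 was 3.68 (SE 0.19, edgeR adjusted p 5.99e-08).

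Gal3st1, which adds the sulphate that turns galactosylceramide into sulfatide, was at 5.03, 5.72, 6.8 and 4.62 CPM in the SOC at E16, at 17.2, 15.1, 20.1 and 10.9 at P0, and at 86.9, 82.6 and 127 at P16. It was the second gene called at P0 in the SOC (log2 1.51, SE 0.21, edgeR adjusted p 1.46e-04), and its ages did not overlap. In the cochlea its P0 libraries, at 9.71, 16.45 and 15.8 CPM, overlapped with those of P16, at 16.2, 18.1 and 31.2, while E16 lay below both at 4.37, 7.81 and 4.97. Cers2, the ceramide synthase for very long chains, rose by 2.85 (SE 0.12) in the SOC, from 42.7 to 48.3 CPM at E16 to 312 to 346 at P16. It differed by 0.99 (SE 0.09) in the cochlea, where all 3 P16 libraries were between 157.8 and 158.8 CPM. Degs1, the dihydroceramide desaturase, rose in both organs, by 2.02 and 1.47. Sptlc2, a subunit of the enzyme that starts sphingolipid synthesis, was not called, at 0.28 and 0.26.

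**Figure D3:**
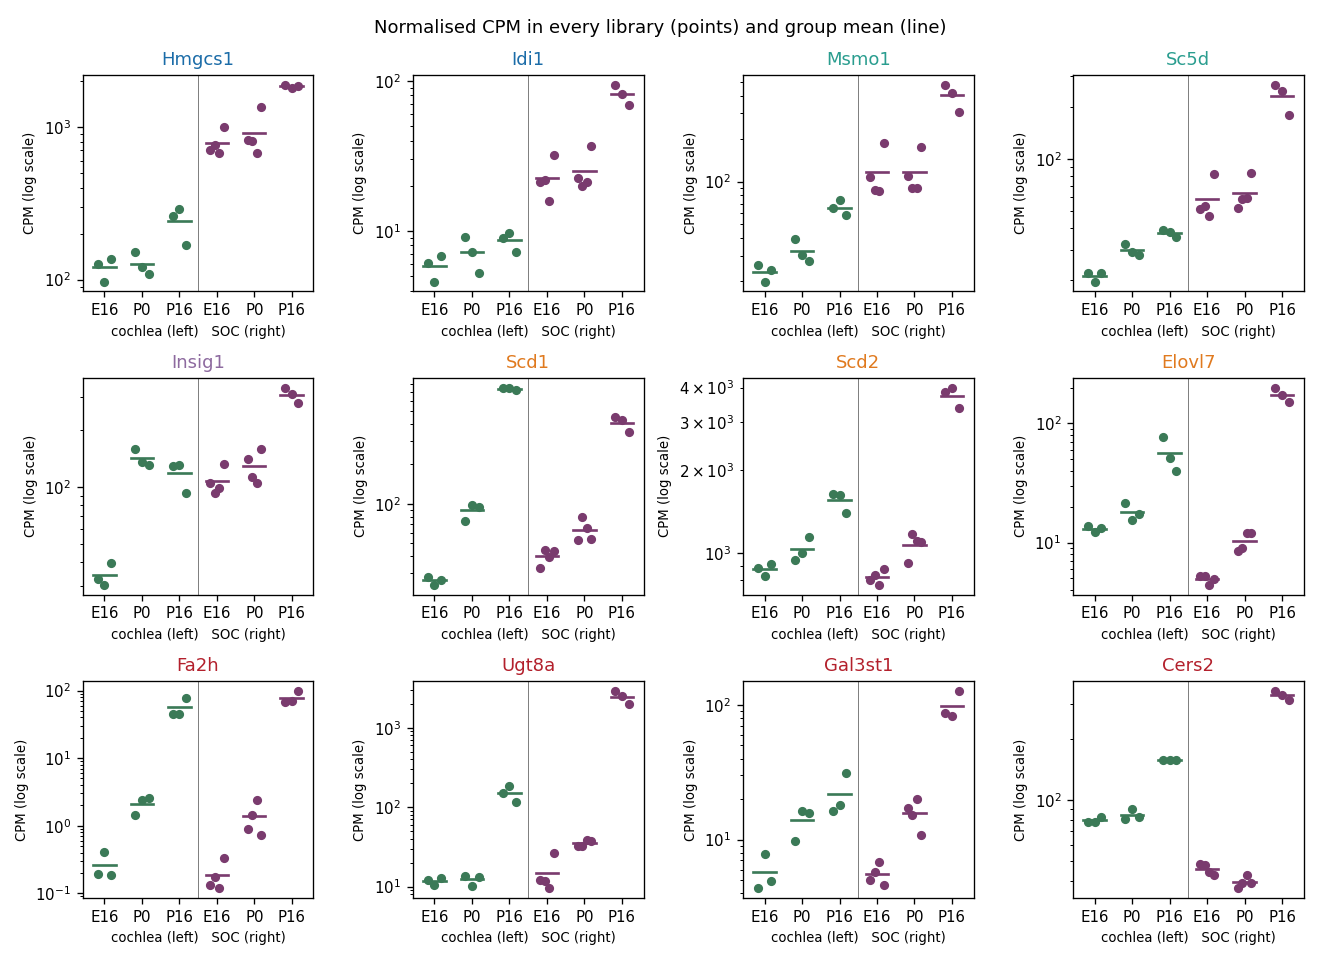
Points give CPM on a log axis in each library and lines the group mean, for 12 genes, with the cochlea in green on the left and the SOC in purple on the right of each panel (each panel has its own scale, and its title is coloured by role). At P16 Ugt8a reaches 2006 to 2902 CPM in the SOC and 115 to 186 in the cochlea, Scd1 is at 724 to 755 in the cochlea, and Insig1 is already up at P0 in the cochlea.

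Whether the change with age differed between the organs was tested by the interaction in a fit of all 20 libraries. From E16 to P16, 7 of the 35 genes were called. Scd1 rose more in the cochlea, beside 13.3% of all genes called in that direction. Negative values, where the change in the SOC lay above that in the cochlea, were called for Ugt8a (-3.59, SE 0.39), Elovl7 (-2.94, SE 0.28), Gal3st1 (-2.12, SE 0.41), Cers2 (-1.76, SE 0.12), Elovl6 (-1.58, SE 0.16) and Dhcr7 (-1.41, SE 0.21), beside 5.95% of all genes. Idi1 (-1.18, SE 0.37), Lss (-0.85), Sc5d (-1.07) and Scd2 (-1.26), although called within the SOC alone, were not called as different from the cochlea over this interval. All of them were lower in the interaction at an edgeR adjusted p under 0.05 with no minimum fold. Idi1 and Scd2 were called in 3 alternatives each (up to -1.42 and -1.45). Fa2h, the gene with the largest fold in both organs, was at -0.84 (SE 0.74, adjusted p 0.39).

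From P0 to P16, 10 genes were called in the interaction. Pmvk (1.40, SE 0.24) was the only one with a positive value, beside 10.4% of all genes. The 9 with a negative value, beside 6.67% of all genes, were Mvd, Sc5d, Dhcr7, Insig1, Elovl1, Elovl7, Cers2, Ugt8a and Gal3st1, from -1.33 for Mvd to -2.39 for Ugt8a. Mvd differed from the other 8 in that its larger change was in the cochlea, where it was lower at P16 than at P0 (-1.03, against 0.43 in the SOC). At an adjusted p under 0.05 with no minimum fold, the interaction was higher for 1 gene and lower for 15 from E16 to P16, beside 25% and 16.3% of all genes, and higher for 1 and lower for 18 from P0 to P16, beside 23.1% and 18.1%. Cers2, at -2.04, had the smallest SE of these, 0.12. Over all genes the fit with GC offsets moved the share of calls that were higher from 46% to 60.7% for P16 vs E16 in the SOC and from 47.5% to 63.8% for P16 vs P0. It moved that share from 57.3% to 67.5% for P0 vs E16 in the cochlea and from 61% to 48.1% for the interaction from P0 to P16. No called gene of the set changed sign in these fits.

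**Figure D4:**
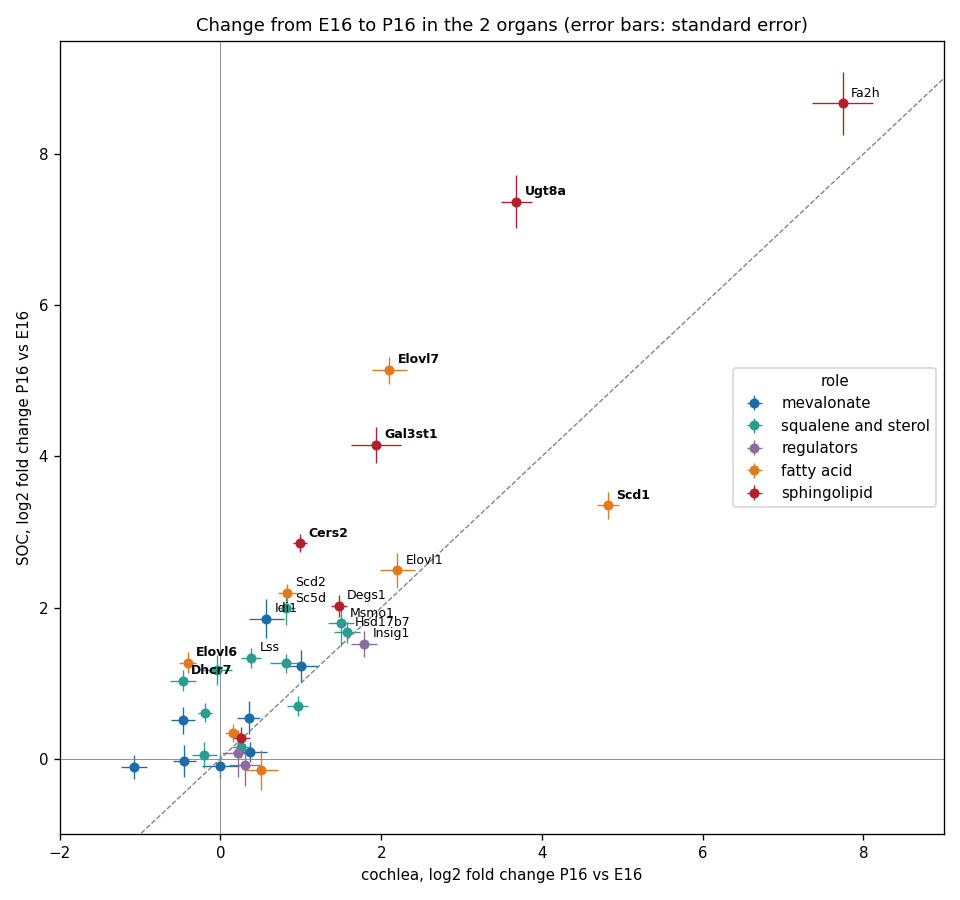
Each gene's log2 fold change for P16 vs E16, with the cochlea on the x axis, the SOC on the y axis and standard errors as bars, coloured by role; the dashed line marks equal change, and bold names were called in the interaction. Ugt8a, Elovl7, Gal3st1 and Cers2 lie far above the line and Scd1 below it.

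Markers of the myelinating cells were summed in every library. The summed level of 5 myelin genes of both glial types (Mbp, Mag, Cnp, Mal and Gjc3) was 89.9 to 128 CPM in the SOC at E16, 204 to 455 at P0 and 21495 to 23491 at P16. In the cochlea it was 90.3 to 93.8, 150 to 186 and 1842 to 2494 CPM. The 8 oligodendrocyte markers summed to 63.2 to 102 CPM at E16 and 8451 to 12139 at P16 in the SOC. In the cochlea they summed to 52.5 to 60.5 CPM at E16, 130 to 202 at P0 and 130 to 162 at P16. Of the cochlear sum at P16, Cldn11 made up a mean of 117 CPM. Olig2 was at 0 counts in every cochlear library, whereas Mobp was at 0 at E16 and P0 and at 3.08 to 42.9 CPM at P16. The 7 Schwann cell markers found in the table summed to 60.1 to 70.8 CPM at E16 and 3540 to 4308 at P16 in the cochlea, and to 48.7 to 87.8 at P16 in the SOC. The summed level of 5 astrocyte markers in the SOC was 220.0 to 260.0 CPM at E16 and 5017 to 6026 at P16, of which Slc1a2 made up a mean of 114 and 3608, while Aldh1l1 was at 75.1 and 106. Neuron markers summed to 1426 to 2280 CPM at E16 and 4751 to 5883 at P16 in the SOC, where Elavl4 was at a mean of 168 and 175. In the cochlea they summed to 425 to 578 CPM at E16, 271 to 349 at P0 and 1686 to 2261 at P16. Of these cochlear sums Snap25 made up a mean of 24.2 CPM at E16 and 758 at P16. Syt1, of the same list, was lower in the cochlea at P16, at 32.9 and 15.2. The part of these cell types in the changes above was not tested.

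**Figure D5:**
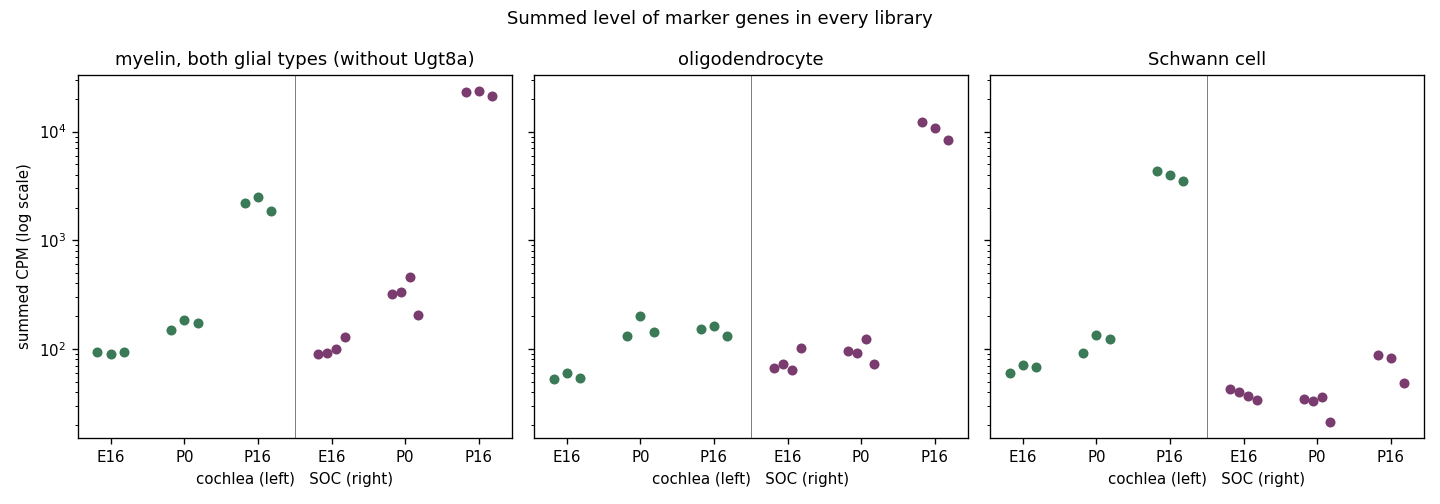
Summed CPM on a log axis of 3 marker lists in every library, with the cochlea in green on the left and the SOC in purple on the right of each panel. At P16 myelin genes are high in both organs (1842 to 2494 and 21495 to 23491 CPM), oligodendrocyte markers in the SOC and Schwann cell markers in the cochlea.

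The labelled tissues were checked in the same way. Hair cell markers summed to 476 to 641 CPM in the cochlea at P16 and 23 to 30.2 in the SOC, where Slc26a5 and Ocm were at 0 counts throughout. The SOC samples are labelled as neuronal. Their neuron markers summed to less than the oligodendrocyte markers at P16, of which Mobp made up a mean of 6943 CPM and Cldn11 of 1873. Sums over lists of different genes do not rank cell types. At E16 the SOC libraries also held 545 to 1186 CPM of skeletal muscle markers and 3500 to 7525 of cartilage markers, which were at 2.91 to 16.7 and 9.98 to 52.7 later. At P16 the cochlear libraries held 235 to 527 CPM of bone markers, against 6.58 to 10.4 earlier. Their cartilage markers summed to 3910 to 4826 CPM at E16, 8442 to 11119 at P0 and 2365 to 3024 at P16. Of these sums Col2a1 made up a mean of 4324, 10132 and 2420 CPM. Erythroid markers summed to 410 to 814 CPM in the SOC at E16 and to 63.4 to 626 in the cochlea at P16. Of 6 adipocyte markers, 2 were in the table, at up to 5.64 CPM. The part of these tissues in the values of either organ was not tested.

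Related genes outside the set were counted from 3 further lists. Their counts are read beside the shares of all genes for P16 vs E16, 11.7% higher and 13.7% lower in the SOC and 14.8% and 9.51% in the cochlea. Of 17 genes of sterol sensing, uptake and export, 4 rose in the SOC and 2, a share under that of all genes, in the cochlea, and 0 were called lower in either. Apoe, the main lipoprotein of brain cholesterol transport, changed most in the SOC (log2 3.30, SE 0.26), from 168 to 270.0 CPM at E16 to 2034 to 2380 at P16. Nr1h3, the oxysterol receptor LXR alpha, changed most in the cochlea (2.39, SE 0.23) but was at 0.33 (SE 0.41) in the SOC.

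Of 20 further fatty acid genes, 6 rose and 1 fell in the cochlea and 5 of the 19 tested rose in the SOC. Thrsp, a lipogenic regulator, changed most in both, at 2.75 (SE 0.19) in the cochlea and 4.26 (SE 0.18) in the SOC. Elovl2, an elongase of polyunsaturated fatty acids, fell in the cochlea from 6.58 to 7.07 CPM at E16 to 1.94 to 2.21 at P16 (log2 -1.76, SE 0.15), whereas it was at 1.06 (SE 0.15) in the SOC. Of 21 further sphingolipid genes, 7 rose and 2 fell in the cochlea and 5 rose and 2 fell in the SOC. Sgms2, a sphingomyelin synthase, rose most in the cochlea (3.56, SE 0.26), whereas it fell in the SOC (-1.79, SE 0.23), from 40.2 to 85.2 CPM at E16, the age of the muscle and cartilage markers there, to 16.5 to 19.4 at P16. Cers3, a ceramide synthase, fell most in the cochlea (-2.46, SE 0.32), to under 0.24 CPM. In the SOC the largest changes were those of Degs2, a dihydroceramide desaturase, at 1.34 to 2.76 CPM at P16 and at 0 counts in 3 of the 4 E16 libraries, and of Sptlc3, a subunit of serine palmitoyltransferase, at 0.867 to 1.84 CPM at E16 and at 0 counts in 1 of 3 P16 libraries. A count of 0 can stand for up to 20 counts where a gene was left out of a joined table, so no fold is given for these 2 genes.

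The genes whose pattern was most like that of Ugt8a were sought by the Pearson correlation of log2 (CPM + 1). Over the 20 libraries those nearest to it included Dock10 (r = 0.993), Enpp4 (0.992), Asah2 (0.989) and Pptc7 (0.988). Within the SOC (11 libraries) they were Tmeff2, Slc25a33, Tmem19, Tppp and Strn, at 0.996 to 0.998, and within the cochlea (9 libraries) A330023F24Rik was the nearest, at 0.998. Of the set, Scd2 was nearest over all libraries (0.977), and Degs1 within the SOC (0.995). For Hmgcs1 the nearest genes over the 20 libraries were Fez1 (0.987), Cycs (0.985), Ranbp6 (0.984), Uqcrb (0.983) and Slc33a1 (0.982). Within the SOC, Idi1 was the nearest of the set, sixth of all genes at 0.973, followed by Cyp51 at 0.971. Within the cochlea Hsd17b7 was nearest of the set, at 0.937. These correlations follow age, organ and library composition alike and are descriptions only.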

How the data were processed

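Per the study's methods and the submitters' processing notes, the authors aligned reads with STAR 2.5.3a to mm10 and counted them per GENCODE gene, and the notes also list HTSeq and DESeq2. The deposited values are raw counts. The annotation version and the strand setting of the counting are not given in the sources used here. 1 table of 20 libraries was used. Groups and replicate numbers came from sample titles, and nothing says whether pools shared animals or litters, so p-values measure the spread between these samples. Same-numbered SOC libraries of E16 and P0 deviated together (correlations of 0.43 to 0.69 in the 4 pairs), so a replicate block is given there. However, E16 replicate 2 correlated more with P0 replicate 3 (0.50) than with its own number (0.43). Likewise, E16 replicate 3 correlated more with P0 replicate 2 (0.57) than with its own number (0.45). Replicates differed by more than counting noise (chi-square per degree of freedom 4.82 to 106). Within each of 4 sets of libraries (9 cochlear, and 1, 4 and 6 of the SOC), no gene other than those at 0 throughout had a highest count under 21, so the table appears to join 4 tables from which genes of up to 20 counts had been left out, and a 0 can stand for up to 20 counts. Floors (3 counts) and intervals cover counting error only.

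Genes with a count above 0 in an organ (21829 in the cochlea, 17372 in the SOC, 16467 in both for the interaction) were tested with edgeR 4.0.16 (R 4.3.3): TMM factors, quasi-likelihood F test, Benjamini-Hochberg adjustment over all genes tested. The 3 ages of an organ shared 1 fit, and the interaction used all 20 libraries. Calls needed an adjusted p under 0.01, over 2.5-fold change and no overlap of libraries (interaction: no overlap rule). The scripts were tested on simulated data. Alternatives were DESeq2 1.42.0, upper-quartile factors, edgeR's filterByExpr, an adjusted p of 0.05, GC offsets, a replicate block, the joined table as a term, and leaving out each library. Positions, exon lengths, GC content, overlaps and shared windows of 50 bases came from GENCODE M21, in which 22637 IDs (99.6%) were found.

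The genes and lists were chosen with earlier results of these data known. All genes of the set are named. A gene is given in every library of an organ where it had the largest change for P16 vs E16 or P16 vs P0 among the called genes of its role (or of all, where none was called), and of each further list the called gene with the largest change in each direction and organ is named. Library values of other genes were added after their values were seen. Some genes of these lists are not reported here.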

Additional observations from a re-analysis of the deposited data

Results flagged for a closer look

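In groups of 4 SOC libraries, 9 values stood far from the other 3 by Dixon's criterion, in 70 groups tested, where chance gives about 1 in 20 groups (3.5). 4 of the 9 were in replicate 4, the library inferred to come from another joined table: Idi1 at P0 (36.8 CPM, against 19.8 to 22.5), Cyp51 at E16 (346, against 215 to 233), Ugt8a at E16 (26.3, against 9.59 to 12.2) and Fasn at P0 (444, against 701 to 719). Replicate 1 of P0 stood apart for Mvd (47.7, against 36 to 37.3), Ebp (14.9, against 11.9 to 12.3) and Degs1 (83.2, against 89.2 to 90). The others were Nsdhl in replicate 3 of E16 (29.6, against 24.6 to 25.3) and Dhcr7 in replicate 2 of E16 (19.3, against 16.6 to 16.9).

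The change with age differed between the organs (cochlea minus SOC, log2, edgeR's interaction test with Benjamini-Hochberg adjustment) for 7 genes from E16 to P16: Scd1 at 1.57 (adjusted p 1.71e-05), Dhcr7 at -1.41 (2.58e-05), Elovl6 at -1.58 (4.03e-07), Elovl7 at -2.94 (1.42e-07), Ugt8a at -3.59 (7.48e-07), Gal3st1 at -2.12 (3.58e-04) and Cers2 at -1.76 (2.78e-09). From P0 to P16 it differed for 10: Pmvk at 1.40 (1.75e-04), Mvd at -1.33 (2.81e-04), Sc5d at -1.42 (4.18e-04), Dhcr7 at -1.36 (4.36e-05), Insig1 at -1.39 (1.81e-04), Elovl1 at -1.45 (0.00193), Elovl7 at -2.30 (2.7e-06), Ugt8a at -2.39 (7.35e-05), Gal3st1 at -1.88 (9.14e-04) and Cers2 at -2.04 (6.36e-10). Kit, substrain and laboratory went with the organ, and their part in these differences was not tested.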

How the results depend on the processing

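Every alternative kept the direction of each called gene of the set. At an adjusted p under 0.05 with no minimum fold, the cochlea had 17 genes higher and 2 lower for P0 vs E16 (22.6% and 19.3% of all genes). It had 19 and 5 for P16 vs E16 (31.5% and 29.8%), and 17 and 8 for P16 vs P0 (33.1% and 31.1%). For the same steps the SOC had 7 and 1 (16.4% and 18.3%), 25 and 0 (27.5% and 33.8%), and 22 and 0 (23.2% and 25.1%). In the interaction (cochlea minus SOC) 1 was then higher and 15 lower from E16 to P16 (25% and 16.3% of all genes). From P0 to P16, 1 was higher and 18 lower (23.1% and 18.1%). Pmvk, the only gene with a positive called value from P0 to P16, was not called with GC offsets, with the joined table as a term, without cochlea P0 replicate 3 or without cochlea P16 replicate 2, so that count became 0 (log2 1.20, 1.31, 1.31 and 1.10, against 1.40).

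Leaving out each library in turn gave 14 to 17 genes higher for P16 vs E16 in the SOC and 10 each time in the cochlea, 13 to 15 and 5 to 6 for P16 vs P0, and 2 to 3 and 3 to 4 for P0 vs E16. In the interaction it gave 6 to 8 negative values from E16 to P16, and 6 to 9 from P0 to P16, with 0 to 1 positive. Calls of Lss (SOC P16 vs E16), Mvd, Dhcr7, Insig1 and Elovl1 (interaction) lay near the minimum fold and were lost in several settings. Calls gained for P16 vs E16 in the SOC were those of Hmgcs1, Cyp51, Elovl6, Ebp and Dhcr7 (all 5 with GC offsets), and Insig1 for P16 vs P0. With the joined table as a term, SOC P16 replicate 3 does not count toward the change with age. That term lost 8 calls: Lss and Insig1 for P16 vs E16, Idi1 and Msmo1 for P16 vs P0, and Pmvk, Mvd, Sc5d and Insig1 in the interaction from P0 to P16. Upper-quartile factors moved the median of all genes for P16 vs E16 in the SOC from -0.14 to -0.26, and GC offsets moved it to 0.18 (cochlea: 0.01 to 0.12).

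Outside the SOC comparison of P0 with E16, equal replicate numbers did not pair the samples, since the correlations of same-numbered deviations went down to -0.31. Not every library correlated best with its own number, and this held within that SOC comparison too. With a replicate block the SOC had 18 genes higher for P16 vs E16, 15 for P16 vs P0 and 3 for P0 vs E16, the cochlea counts were 10, 5 and 3, and the interaction had 7 and 7 lower.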
